A study of Rattus norvegicus with 10 samples.

Results

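The respiratory chain of the mitochondrion is built in part from proteins that the mitochondrial genome itself encodes, and the RNA of 10 of these genes was compared in the rat prefrontal cortex (PFC) after repeated MK-801 administration. The 10 genes were taken by their Ensembl identifiers from the 30560 genes of the deposited count table. They are Nd1 (ENSRNOG00000030644), Nd2 (ENSRNOG00000031033), Nd4 (ENSRNOG00000029707), Nd5 (ENSRNOG00000029971) and Nd6 (ENSRNOG00000029042) of complex I, Cytb (ENSRNOG00000031766) of complex III, Co1 (ENSRNOG00000034234), Co2 (ENSRNOG00000030371) and Co3 (ENSRNOG00000030700) of complex IV, and Atp6 (ENSRNOG00000031979) of the ATP synthase. All 10 genes had enough counts to be tested. The rule that names them uses no measured value, but the set was chosen with earlier results of these data known.

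Complexes I, III and IV pass electrons from NADH to oxygen and pump protons across the inner mitochondrial membrane, and the ATP synthase uses the returning protons to make ATP. Each of these complexes also holds many subunits that nuclear genes encode, whereas complex II is encoded by nuclear genes alone. The mitochondrial genome is small, circular and present in many copies per cell. Its strands are copied into long transcripts that are cut into the single RNAs, so that neighbouring genes share a precursor. Nd6 is read from the light strand, and the other 9 genes are read from the heavy strand. Neurons draw most of their ATP from this chain, and much of it is spent on restoring ion gradients after synaptic activity.

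The samples were PFC tissue of male wild-type SD (Sprague-Dawley) rats, 1 library per rat. The animals came at 21 days of age and were given 1 week to settle. The control group (n = 5) was then injected with saline (0.9%) and the MK-801 group (n = 5) with MK-801 at 0.2 mg/kg, both into the peritoneum and for 2 weeks. MK-801 blocks the channel of the NMDA receptor without competing with glutamate, and its repeated use serves as a model of NMDA receptor hypofunction. As a bulk tissue measure, the counts cannot tell fewer cells of a type apart from less RNA per cell. Markers of neurons, glia and other cells were not analysed here, since the table gives genes by identifier and no source used here pairs those with names.

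The libraries held from 24334589 to 30824539 counts, and from 20199 to 20568 genes had at least 1 count in a rat. The summed counts of the 10 mitochondrial genes ranged from 1561321 to 3096343 per rat, so that counting error was negligible beside the spread between rats, and the 95% Wilson interval of a share reached at most 0.0111 percentage points to either side. These intervals cover counting error only. Among the 10 genes with the highest mean count in the whole table, 8 were mitochondrial genes of this set.

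The 10 genes together took a smaller share of all counts in the MK-801 group than in the control group, but the groups overlapped. The share was 7.204%, 7.65%, 10.6%, 8.40% and 5.69% in control replicates 1 to 5, and 6.53%, 6.53%, 6.09%, 6.42% and 5.29% in MK-801 replicates 1 to 5. The mean was 7.90% ± 1.79 in the controls and 6.17% ± 0.523 under MK-801 (SD, n = 5 each), a difference of -1.73 percentage points, or 21.9% of the control mean. Control replicates 1 to 4 all lay above every MK-801 rat, whereas control replicate 5 lay below all MK-801 rats but replicate 5. The control rats were spread over a 1.86-fold range and the MK-801 rats over a 1.23-fold range. Without control replicate 3, the rat with the highest share, the control mean was 7.23% ± 1.14 (SD) and the difference was -1.06 percentage points, so that this rat alone changed the difference by more than 1.5 times. No test was run on this sum, because the set of genes had been chosen with earlier results of these data known.

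**Figure D1:**
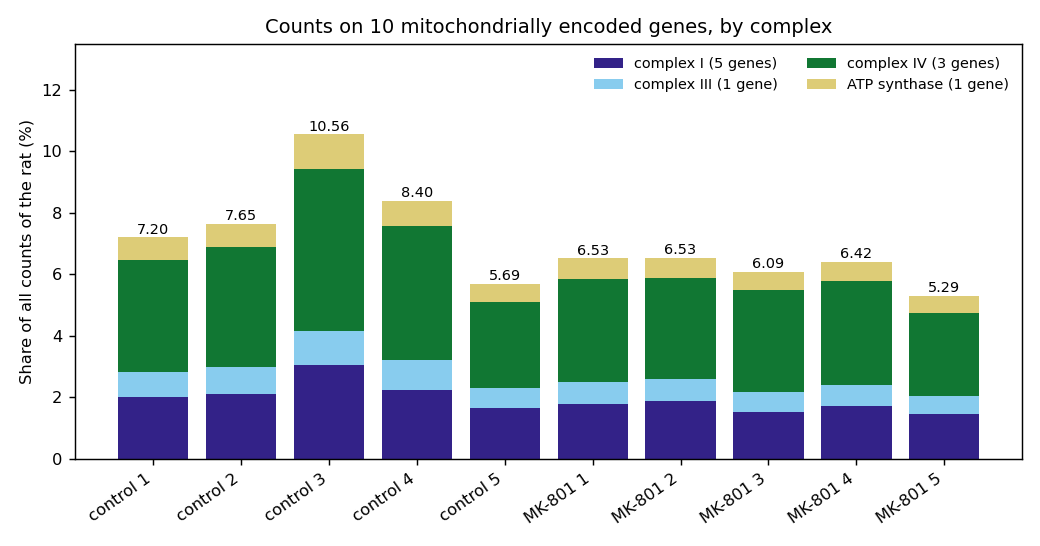
Stacked bars give the share of all counts of a rat, in percent, that fell on the mitochondrial genes of complex I, complex III, complex IV and the ATP synthase, with the summed share printed above each bar. The highest bar is control replicate 3 at 10.56% and the lowest is MK-801 replicate 5 at 5.29%, and all MK-801 rats lie at or below 6.53%.

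The share taken by other abundant genes differed less between the group means. The 10 most abundant genes outside the set took 2.88% ± 0.308 of each control library and 2.73% ± 0.256 of each MK-801 library (SD, n = 5 each). This share, too, was the highest of all 10 rats in control replicate 3, at 3.15%, and the lowest in control replicate 5, at 2.40%, and the part of this in the result was not tested. By complex, the complex I genes took 2.22% ± 0.520 of all counts in the control group and 1.67% ± 0.173 in the MK-801 group (SD, n = 5 each). The complex IV genes took 3.999% ± 0.912 and 3.20% ± 0.281 (SD, n = 5 each). Cytb, the sole member of complex III, took 0.878% ± 0.168 and 0.671% ± 0.0590, and Atp6 took 0.806% ± 0.201 and 0.623% ± 0.0469 (SD, n = 5 each). Each of the 4 complexes was thus lower on average in the MK-801 group. These shares follow transcript length as well as RNA level, and transcript lengths were not used here, so they do not rank the genes or complexes by level.

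For the comparison gene by gene, counts were expressed as CPM, counts relative to a common library size, with TMM scaling and tested with edgeR's quasi-likelihood test over 16137 genes. All 10 genes had a lower estimate in the MK-801 group, with log2 fold changes from -0.48 for Nd5 to -0.27 for Co2, or levels 28.2% and 16.8% lower. Their median was -0.40, against -0.01 over all genes tested, and 51.3% of all genes tested had a log2 fold change below 0. None of the 10 passed an adjusted p-value of 0.05 in edgeR (0 of 10; over all genes tested 0 of 16137, or 0%), and their adjusted p-values ranged from 0.280 to 0.529. Without adjustment, edgeR gave 8 of the 10 genes a p-value under 0.05 and all 8 were lower, where 6.95% of all genes tested passed in that direction and 13.9% in either. The genes of this set vary together from rat to rat, with a median Pearson's r of 0.945 between them, so that these 8 are not 8 separate observations. None of the 10 met the criteria of the methods, an unadjusted p-value under 0.05 together with a log2 fold change of 1 or more in either direction, which 0.229% of all genes tested met. DESeq2, the tool of the study's methods, also put 8 of the 10 at an unadjusted p-value under 0.05, all lower (background 4.82% of 23893 genes). It put 0 of 10 at an adjusted p-value under 0.05 (background 0.724% of 14633 genes), the smallest being 0.0979 for Cytb. These backgrounds cover other sets of genes than the 16137 of edgeR, so the shares of the 2 tools cannot be compared directly.

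The complex I genes encode membrane subunits of NADH dehydrogenase, the entry point of electrons from NADH. Nd1, which lies next to the site where ubiquinone is bound, had 5071, 5050, 7188, 5905 and 4079 CPM in control replicates 1 to 5 and 4307, 4578, 3683, 4364 and 3667 CPM in MK-801 replicates 1 to 5. Its level was 5459 ± 1163 CPM in the control group and 4120 ± 418 CPM in the MK-801 group (SD, n = 5 each), a log2 fold change of -0.41 (SE 0.13, edgeR adjusted p = 0.280). Control replicates 1 to 4 lay above every MK-801 rat, and control replicate 5 lay above MK-801 replicates 3 and 5 and below the others. Nd2, Nd4 and Nd5 are subunits of the proton-pumping arm and are related to antiporters. Nd2 had 5386, 5734, 8752, 5881 and 4451 CPM in the control rats and 4657, 5185, 4118, 4717 and 4006 CPM in the MK-801 rats, a log2 fold change of -0.41 (SE 0.15, edgeR adjusted p = 0.312). Nd4 had 5214, 5616, 8803, 6273 and 4502 CPM in the control rats and 5078, 4951, 4232, 4447 and 3874 CPM in the MK-801 rats, a log2 fold change of -0.43 (SE 0.16, edgeR adjusted p = 0.306). In Nd2 and Nd4 as well, control replicate 5 was the only control rat within the MK-801 range.

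Nd5 had the largest estimated difference of the set. It had 3492, 3914, 5975, 4276 and 2959 CPM in the control rats and 3457, 3178, 2832, 2835 and 2501 CPM in the MK-801 rats. Its mean was 4123 ± 1146 CPM in the control group and 2961 ± 366 CPM in the MK-801 group (SD, n = 5 each), with a log2 fold change of -0.48 (SE 0.16, edgeR adjusted p = 0.282). Control replicate 1, at 3492 CPM, lay only just above MK-801 replicate 1, at 3457 CPM. Nd6, the gene of the light strand, had the smallest estimate of complex I. It had 620, 634, 919, 704 and 459 CPM in the control rats and 677, 554, 539, 472 and 425 CPM in the MK-801 rats, a log2 fold change of -0.32 (SE 0.17, edgeR adjusted p = 0.405). MK-801 replicate 1 lay above control replicates 1 and 2 in this gene. The methods do not give the strand setting of the counting, so reads of heavy-strand precursors across Nd6 may be held in its count.

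Cytb, cytochrome b, carries the haem groups of complex III that take electrons from ubiquinol. It had 8065, 8709, 11273, 9870 and 6338 CPM in the control rats and 7050, 7353, 6573, 6664 and 5793 CPM in the MK-801 rats. Its mean was 8851 ± 1861 CPM in the control group and 6687 ± 589 CPM in the MK-801 group (SD, n = 5 each), a log2 fold change of -0.40 (SE 0.14, edgeR adjusted p = 0.280). Of the MK-801 rats only replicate 5 lay below control replicate 5, while the other 4 control rats lay above all MK-801 rats.

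The complex IV genes encode the catalytic core of cytochrome c oxidase, which hands electrons to oxygen. Co1, which carries the site where oxygen is reduced, had 21748, 23896, 33121, 28400 and 17649 CPM in the control rats and 20465, 19819, 20357, 20068 and 16160 CPM in the MK-801 rats. Its mean was 24963 ± 5986 CPM in the control group and 19374 ± 1814 CPM in the MK-801 group (SD, n = 5 each), a log2 fold change of -0.37 (SE 0.15, edgeR adjusted p = 0.330). MK-801 replicates 1 to 4 lay close together in Co1, and replicate 5 lay apart below them. Co2, which takes electrons from cytochrome c, had the smallest estimated difference of the set. It had 5875, 6208, 9439, 7194 and 4088 CPM in the control rats and 6398, 5263, 5805, 5438 and 4382 CPM in the MK-801 rats, a log2 fold change of -0.27 (SE 0.18, edgeR adjusted p = 0.529). In Co2, control replicate 5 was the lowest of all 10 rats and MK-801 replicate 1 lay above control replicates 1 and 2. Co3, a core subunit without metal centres, had 8297, 8376, 11975, 9330 and 6137 CPM in the control rats and 7434, 7295, 6967, 7300 and 6352 CPM in the MK-801 rats, a log2 fold change of -0.32 (SE 0.14, edgeR adjusted p = 0.350). Here too the lowest of all rats was control replicate 5.

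Atp6 encodes the subunit of the ATP synthase that lines the path of the protons through the membrane. It had 7324, 7661, 11668, 8280 and 5719 CPM in the control rats and 6719, 6492, 6098, 6264 and 5450 CPM in the MK-801 rats. Its mean was 8130 ± 2192 CPM in the control group and 6205 ± 483 CPM in the MK-801 group (SD, n = 5 each), a log2 fold change of -0.39 (SE 0.15, edgeR adjusted p = 0.319). The range of the MK-801 rats was narrow, and control replicate 5 lay inside it. The reading frame of Atp6 overlaps that of a neighbouring gene on the same RNA, and how reads on overlapping genes were assigned is not given in the sources used here. Nuclear copies of mitochondrial DNA may likewise draw reads away from any of the 10 genes, in a way these counts do not show.

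**Figure D2:**
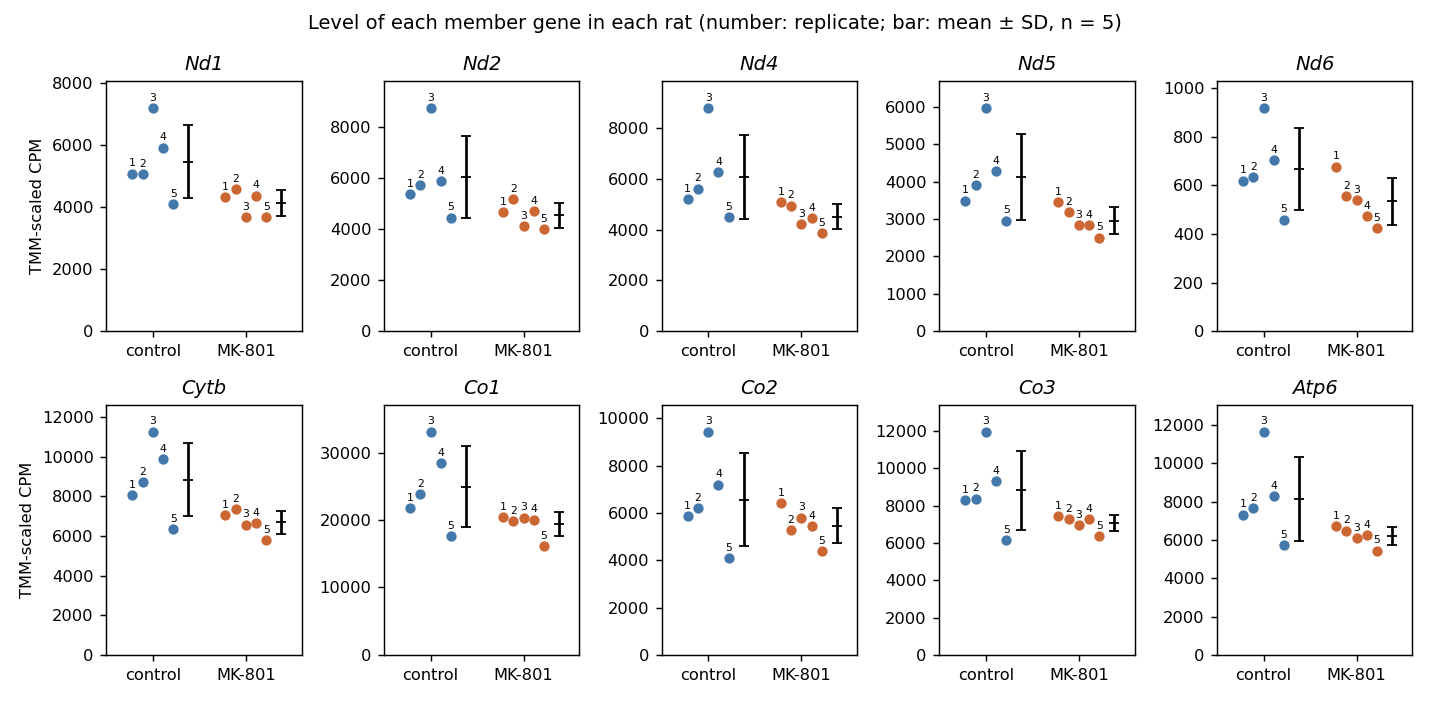
Each panel gives the level of a mitochondrial gene in TMM-scaled CPM, with 1 point per rat numbered by replicate and the group mean ± SD (n = 5) beside the points; the vertical axes start at 0 and differ between panels. Control replicate 3 is the highest point and control replicate 5 the lowest control point in all 10 panels, and MK-801 replicate 5 is the lowest MK-801 point in all 10.

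The same rats stood at the ends of the range in every gene. Control replicate 3 was the highest of all 10 rats in 10 of 10 genes, control replicate 5 was the lowest control rat in 10 of 10, and MK-801 replicate 5 was the lowest MK-801 rat in 10 of 10. The lowest of all rats was MK-801 replicate 5 in 8 genes and control replicate 5 in the other 2, Co2 and Co3. Between control replicates 3 and 5 the levels differed from 1.76-fold in Nd1 to 2.31-fold in Co2, more than the difference between the group means of any gene. Averaged over the 10 genes, control replicate 3 lay 0.51 above the mean of its group on the log2 scale and control replicate 5 lay -0.46 from it, while MK-801 replicate 5 lay -0.22 from the mean of the MK-801 group. Control replicates 3 and 5, at opposite ends of the range, had the largest control libraries, with 29323458 and 29375092 counts, and MK-801 replicate 5 had the largest library of all, with 30824539. MK-801 replicate 1, which lay 0.15 above the mean of its group, had nearly as many, with 30482771. The part of library size in these levels was not tested.

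The spread between rats was wide in the control group, and in the MK-801 group it was close to the median of all genes tested. Those include genes with far fewer counts, and the median was not matched for abundance. It therefore does not show whether the spread was usual for genes this abundant. The SD of log2 CPM had a median of 0.358 over the 10 genes in the control group and of 0.151 in the MK-801 group, against medians of 0.153 and 0.147 over all genes tested. It was larger in the control group in 10 of 10 genes, where 52.7% of all genes tested had the larger SD in that group. Because the 10 genes move together, this describes the 5 control rats rather than 10 separate spreads, and no test was run on it.

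In 0 of 10 genes were the groups free of overlap, where 2.31% of all genes tested were free of it in either direction and 1.21% with the MK-801 rats lower. This rested on control replicate 5. Without that rat, a comparison chosen after its values were seen, every remaining control rat lay above every MK-801 rat in 8 of the 10 genes, all but Nd6 and Co2, where 3.72% of all genes tested were lower without overlap. Without control replicate 5, all 10 genes had an unadjusted p-value under 0.05 in edgeR, all lower (background 9.39%), with log2 fold changes from -0.57 for Nd5 to -0.39 for Co2, and still 0 of 10 passed an adjusted p-value of 0.05 (background 0%).

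Leaving out control replicate 3 had the opposite effect. The log2 fold changes then lay between -0.31 for Nd5 and -0.10 for Co2, and those of Nd2, Nd4, Nd5, Nd6, Co1, Co2, Co3 and Atp6 were smaller by more than 1.5 times. Only 5 genes then had an unadjusted edgeR p-value under 0.05, all lower (background 4.64%), with Co1, Co3 and Atp6 no longer among them. Without MK-801 replicate 5 they also numbered 5 (background 5.92%), and the same 3 genes were lost. Nd1, Nd2, Nd4, Nd5 and Cytb stayed at an unadjusted p-value under 0.05 with each of the 10 rats left out in turn, whereas Co3 did so in 1 of these 10 fits. The share of all genes tested that stayed so in every fit was not taken. These 5 genes also vary together from rat to rat, so they are not 5 separate results.

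**Figure D3:**
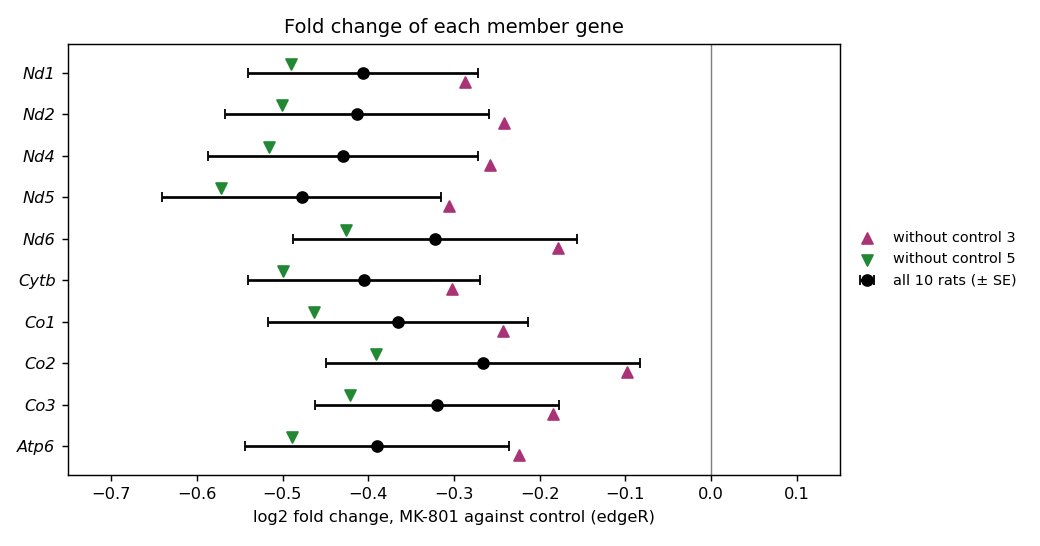
The horizontal axis gives the edgeR log2 fold change, MK-801 over control, of each mitochondrial gene, as black points with standard errors for all 10 rats and as triangles for the fits without control replicate 3 or without control replicate 5. All estimates lie below 0, from -0.57 for Nd5 without control replicate 5 to -0.10 for Co2 without control replicate 3.

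Once the group means were removed, the 10 genes varied together from rat to rat. Pearson's r of log2 CPM over the 10 rats, as a description, ranged from 0.830 between Nd2 and Nd6 to 0.993 between Nd4 and Nd5, with a median of 0.945 over the 45 pairs of genes. Against the mean of all 10 genes, which includes the gene itself, r was lowest for Nd6, at 0.944, and highest for Atp6, at 0.993. These points share their libraries and scaling, and control replicates 3 and 5 lie far from the rest.

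The proportions of the 10 genes to each other varied less from rat to rat than their sum. As a percent of the summed counts of the set, Atp6 lay between 9.62% and 10.7% in all 10 rats and Co1 between 30.4% and 33.3%, while the summed share itself ran from 5.29% to 10.6% of all counts. The coefficient of variation over the 10 rats was 2.78% for Atp6, 3.26% for Co1, 3.54% for Co3 and 3.73% for Cytb, and it was highest for Nd6, at 8.28%, and Co2, at 8.10%. Complex I made up 28.1% ± 1.01 of the summed counts in the control group and 27.1% ± 1.23 in the MK-801 group, and complex IV made up 50.6% ± 1.03 and 51.9% ± 1.52 (SD, n = 5 each), which are differences within about the spread between rats.

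Co2 had the largest difference in proportion, 8.14% ± 0.528 in the control group and 8.86% ± 0.681 in the MK-801 group (SD, n = 5 each). MK-801 replicates 1, 3 and 4, at 9.66%, 9.48% and 8.69%, lay above every control rat, and control replicate 5, at 7.25%, lay below every other rat. Nd5 differed in the other direction, at 5.15% ± 0.228 in the control group and 4.81% ± 0.270 in the MK-801 group (SD, n = 5 each), with 3 MK-801 rats below every control rat. The count of Nd5 per count of Co2 was therefore 0.635 ± 0.0530 in the control group and 0.545 ± 0.0446 in the MK-801 group (SD, n = 5 each). This ratio lay between 0.594 and 0.724 in the control rats and between 0.488 and 0.604 in the MK-801 rats, with MK-801 replicate 2 inside the control range. The pair was chosen after its values were seen, so the ratio was not tested. The light-strand gene kept about the same proportion on average, since Nd6 had 0.836% ± 0.0229 of the summed counts in the control group and 0.865% ± 0.101 in the MK-801 group (SD, n = 5 each). Among the MK-801 rats its proportion ran from 0.755% in replicate 4 to 1.02% in replicate 1, a range wider than that of the control rats, which lay between 0.815% and 0.872%.

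**Figure D4:**
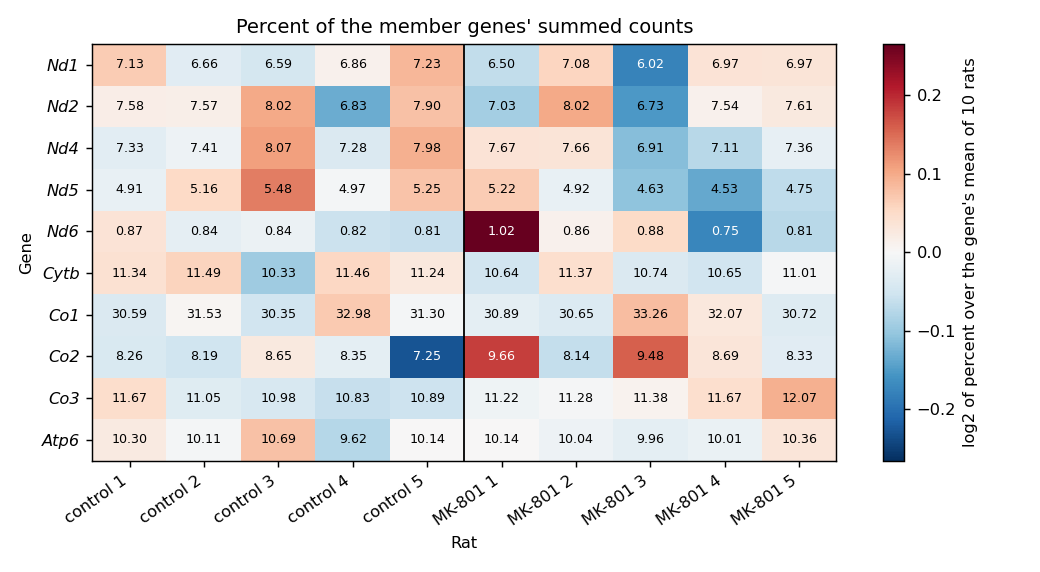
Each cell gives the percent of the 10 genes' summed counts that fell on a gene (rows) in a rat (columns), and its colour gives the log2 ratio of that percent to the mean of the gene over all 10 rats. The strongest colours are those of Nd6 in MK-801 replicate 1, at 1.02%, and of Co2 in control replicate 5, at 7.25%, and in MK-801 replicate 1, at 9.66%, followed by Nd1 in MK-801 replicate 3, at 6.02%, and Nd6 in MK-801 replicate 4, at 0.755%.

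Among the 16058 other genes with a mean of at least 10 counts, those that followed the mitochondrial genes most closely were sought by Pearson's r with the mean log2 CPM of the 10 genes, over the 10 rats after removal of the group means. The median r was -0.00299, and 33 genes had an r of at least 0.9 and 30 an r of -0.9 or below. The highest were ENSRNOG00000000195, at 0.968, and ENSRNOG00000010727, at 0.964. The former had 13.95 CPM in control replicate 3 and 7.22 CPM in control replicate 5, with group means of 10.5 ± 2.49 CPM in the control group and 9.52 ± 1.47 CPM in the MK-801 group (SD, n = 5 each). The lowest were ENSRNOG00000017607, at -0.972, and ENSRNOG00000014576, at -0.955. The latter had 263.6 CPM in control replicate 3 and 348.9 CPM in control replicate 5, with group means of 301.0 ± 31.5 and 331.7 ± 19.1 CPM (SD, n = 5 each). None of these 4 genes passed an adjusted p-value of 0.05 between the groups in edgeR, the smallest being 0.410 for ENSRNOG00000014576. They are the extremes of a large number of genes over few rats and are given as a description.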

How the data were processed

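The authors aligned PFC reads of 10 rats to mRatBN7.2 with HISAT2 2.2.1 and SAMtools 1.15.1, per the submitters' processing notes, and counted them on Ensembl release 105 with featureCounts (Subread 2.0.1). The strand setting and the handling of overlapping and multi-mapped reads are not given in the sources used here. The values they deposited are whole-number counts per gene, not normalized, and every column belonged to 1 of the 10 rats. Each rat gave 1 library, and the sources used here name no batch.

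From these counts, genes were filtered with filterByExpr of edgeR 4.0.16 (minimum count 10, minimum total 15; 16137 of 30560 kept), scaled by TMM and tested in R 4.3.3 with its quasi-likelihood test (two-sided), p-values being adjusted after Benjamini-Hochberg across every gene tested. A standard error is the log2 fold change over the root of its F statistic. Alternatives were DESeq2 1.42.0, limma-voom (limma 3.58.1), RLE, upper quartile and total-count scaling, library sizes without the 10 genes, other filters, the replicate number as a block and each rat left out. On simulated counts with 200 genes changed by a factor of 2, edgeR recovered 167 of the 194 it tested and called 7 unchanged genes. That change is larger than any estimate of the 10 genes, the largest being 28.2% lower for Nd5. The simulation therefore does not show how often differences of that smaller size would be found. Each simulated gene was also drawn independently, with no deviation shared by the genes of a rat, whereas the 10 genes vary together. The recovered and false calls therefore do not carry over to such genes. With DESeq2, 176 of 200 were recovered, beside 22 false calls. All 10 genes were to be described, with the 2 other genes most and the 2 least correlated with them. The genes and lists were chosen with earlier results of these data known. Lists of nuclear respiratory chain, mitochondrial maintenance and cell marker genes were not analysed here, since a RefSeq gene table matched 0 of the identifiers.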

Additional observations from a re-analysis of the deposited data

Results flagged for a closer look

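Over 42 groups of 5 rats (the level and the proportion of each of the 10 genes, and the summed share, in each group), 3 held a rat that was separated from its nearest neighbour by more than 0.71 of the whole range. Chance alone gives such a rat in about 1 of 20 groups. In Co1, the rat set apart was MK-801 replicate 5, the lowest of its group at 16160 CPM. In the proportion of the summed counts, Cytb was low in control replicate 3 at 10.3%, where the other control rats had from 11.2% to 11.5%, and Co3 was high in control replicate 1 at 11.7%, where the others had from 10.8% to 11.1%. The high level of control replicate 3 itself did not exceed this limit in any of the 10 genes or in the summed share.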

How the results depend on the processing

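In each of 19 alternatives, all 10 genes kept a log2 fold change below 0, none passed an adjusted p-value of 0.05 (lowest 0.0979, for Cytb with DESeq2) and none met the criteria of the methods. The median log2 fold change ranged from -0.49 to -0.24 over the alternatives, against -0.40. Over the fits that left out 1 rat, from 5 to 10 genes had an unadjusted p-value under 0.05, against 8, and those without overlap between the groups from 0 to 8, against 0. The 5 came without control replicate 3 and without MK-801 replicate 5, and the 10 and the 8 without control replicate 5. With library sizes that leave out the 10 genes, and with limma-voom, there were 7, Co3 being lost. The summed share differed between the groups by -2.28 to -1.06 percentage points over its alternatives, and the proportion of Co2 by 0.495 to 0.899. RLE, upper quartile and total-count scaling changed no call, and moved the median of all genes by less than 0.1. The groups share replicate numbers, which the labels do not call pairs. The deviations of same-numbered rats correlated above 0.1 in 3 of 5 pairs, replicate 5 having the highest value at 0.319. Between rats with unequal numbers, the correlation was at most 0.126. Replicates 1 and 5, at 0.183 and 0.319, exceeded this, whereas replicates 2, 3 and 4 did not. Replicate 5 of each group was also its lowest rat in 10 of 10 genes, and the fit without control replicate 5 kept MK-801 replicate 5. Whether the number stands for anything shared was not tested. The rats were not treated as paired. With the replicate block, 9 genes had an unadjusted p-value under 0.05, Nd6 being added, and the median log2 fold change was -0.37. In that fit 0 had an adjusted one and 0 met the criteria of the methods. The share of all genes under an unadjusted 0.05 was not taken for this fit, nor for those with 7 genes. These counts therefore have no background and do not show a stronger or weaker result than the 8. At these depths, the rats differ by far more than counting error in each of the 10 genes.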
